A study of Mus musculus with 8 samples.

Results

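The 5 mature miRNAs described here, mmu-miR-23a-3p, mmu-miR-27a-3p, mmu-miR-24-3p, mmu-miR-23b-3p and mmu-miR-27b-3p, are products of a pair of related gene clusters and were selected by name from the 1881 mouse miRNAs on the array. They were measured in skin of male mice with the genotype Ncstn flx/flx, Krt14 CreER+/-, in which tamoxifen activates a Cre recombinase driven by the promoter of a basal keratinocyte keratin. Nicastrin, the product of Ncstn, belongs to the γ-secretase complex, which cleaves Notch receptors. The 4 NcstnΔKC samples came from mice dosed orally with tamoxifen, starting at the age of 8 weeks with 20 mg/kg daily over 5 days and continuing at intervals of 10 days. Mice of the normal group (4 samples) carried the same floxed alleles and the same transgene but received corn oil, so the drug and the deletion differ together between the groups. Skin was taken at 16 weeks in both groups, and Ncstn mRNA is not measured by these arrays, so the deletion was not checked. The protocol calls the excised tissue lesions without saying how normal skin was chosen. Whether each array stands for its own mouse is not given in the labels, and p-values thus refer to the variation among arrays, technical variation included. In whole skin, fewer cells of a type and less miRNA per cell cannot be told apart.

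A miRNA guides repression of messenger RNAs mainly through its seed, bases 2 to 8, which pairs with sites in the target. The miR-23a cluster and the miR-23b cluster each hold 3 hairpins and arose by duplication, so each makes a version of miR-23, of miR-27 and of miR-24. miR-24-3p is identical from both clusters, whereas the a and b forms of miR-23 and miR-27 differ slightly and thus report on their own cluster. As background, miR-23 and miR-27 are abundant in endothelium and known to promote vessel sprouting, miR-27 represses the adipocyte regulator PPARγ, and miR-24 and miR-23b are known in keratinocyte differentiation. The question here is whether these miRNAs differ between NcstnΔKC and normal skin, and comparing a with b asks whether the clusters move together.

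The mature sequences, from RefSeq (GRCm38.p6), show how little separates the members, with the seed in capitals. Of the 5 members 4 had an entry in the table used.
miR-23a-3p: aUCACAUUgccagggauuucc
miR-27a-3p: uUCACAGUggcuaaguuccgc
miR-27b-3p: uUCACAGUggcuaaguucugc
miR-24-3p: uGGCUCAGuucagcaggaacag
The 4 sequences hold 3 different seeds. miR-27a-3p and miR-27b-3p share theirs and differ by 1 base, C19U, counted from 1 at the 5′ end with the miR-27a-3p base first. The seeds of miR-23a-3p and miR-27a-3p have the same first 5 bases and differ by 1 base, U6G, counted from 1 at the first seed base. The seed of miR-24-3p is unrelated to these.

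In the same RefSeq build (GRCm38.p6), the a cluster lies on chromosome 8, where the hairpins Mir23a, Mir27a and Mir24-2 stand on the plus strand within 404 bases (84208518 to 84208921). No other RefSeq gene spans these hairpins, and the nearest protein-coding gene, Zswim4, lies 2021 bases away. The b cluster lies on chromosome 13, where Mir23b, Mir27b and Mir24-1 stand within 792 bases (63300484 to 63301275), inside the span of the aminopeptidase gene Aopep.

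The array reads each member with 2 probes, printed in 15 copies each, that pair with the 3′ part of the miRNA. The probes are shown because they differ between paralogues by a single base, here in capitals, while the second miR-23 probe also differs in length, with 18 bases for the a form and 16 for the b form.
miR-23a-3p probe of 17 bases: ggAaatccctggcaatg
miR-23b-3p probe of 17 bases: ggTaatccctggcaatg
miR-27a-3p probe of 17 bases: gcGgaacttagccactg
miR-27b-3p probe of 17 bases: gcAgaacttagccactg
Counted from 1 at the probe's 5′ end, the miR-23 probes differ by A3T and the miR-27 probes by G3A, with the a form first. The miR-27 probes of 17 bases cover bases 5 to 21 of their miRNA, so they include base 19, where the paralogues differ. How much of each signal comes from binding of the other paralogue was not tested. The other probes of the 4 paralogues are shorter or longer by a base at the far end. Those of miR-24-3p have 17 and 18 bases and match the product of both clusters, so miR-24-3p cannot be assigned to a cluster from its signal.

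All 5 members were detected on all 8 arrays. The 10 probes had mean processed intensities from 249 to 10920 and 13 to 15 copies kept. The coefficient of variation over the copies of a probe on an array had a median of 4.20% and reached at most 10.9%. Values are given as the scaled level: the background-corrected intensity, divided on each array by the 75th percentile of 301 probes detected everywhere, summed over a miRNA's probes, in log2. Since different probes bind with different strength, levels are compared between samples and not between miRNAs.

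None of the 5 members passed the test between NcstnΔKC and normal skin (limma, Benjamini-Hochberg adjusted p under 0.05 over 222 tested miRNAs), whereas 42.8% of all tested miRNAs were called. Of the members 0 were called higher and 0 lower, beside 14.9% and 27.9% of all tested miRNAs. At an unadjusted p under 0.05 there was 1, miR-27b-3p. The members' median log2 difference was 0.03, beside -0.23 for all tested miRNAs. Groups that did not overlap were found for 0 of the 5 members, beside 36.9% of tested miRNAs (13.5% higher and 23.4% lower). The largest difference upward was in miR-27b-3p and the largest downward in miR-23a-3p, members of different clusters.

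miR-23a-3p, the first product of the a cluster, had scaled log2 levels of 3.37, 2.90, 3.38 and 3.46 on normal arrays 1 to 4, and of 3.10, 3.11, 2.80 and 2.67 on NcstnΔKC arrays 1 to 4. Normal array 2 lay among the NcstnΔKC arrays, and the other 3 normal arrays were above all 4 of them. The group means were 3.28 ± 0.25 and 2.92 ± 0.22 (SD, n = 4 each), a log2 difference of -0.36 ± 0.18 (SE; limma adjusted p = 0.138; 95% interval -0.77 to 0.05). The difference was negative in 7 of 8 other scalings and sources of values and positive, 0.51, with the percentile over all probes. It passed as lower with no scaling (-0.62, limma adjusted p = 0.0279), with spike-in scaling (-0.66, 0.0307), with array weights (-0.51, 0.0151) and without normal 2 (-0.48, 0.0497).

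miR-27a-3p, from the next hairpin of the a cluster, had scaled log2 levels of 2.54, 2.28, 2.34 and 2.54 on normal arrays 1 to 4, and of 2.52, 2.57, 2.42 and 2.30 on NcstnΔKC arrays 1 to 4. The groups covered nearly the same range. The log2 difference was 0.03 ± 0.13 (limma adjusted p = 0.858; 95% interval -0.28 to 0.33), and its sign turned in 3 of 8 other scalings and sources.

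miR-24-3p, which both clusters make, had scaled log2 levels of 2.81, 2.50, 2.85 and 2.99 on normal arrays 1 to 4, and of 2.68, 2.96, 2.68 and 2.60 on NcstnΔKC arrays 1 to 4. The lowest value was again in normal 2, and the groups overlapped. The log2 difference was -0.06 ± 0.16 (limma adjusted p = 0.762; 95% interval -0.41 to 0.30), and its sign turned in 4 of 8 other scalings and sources.

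miR-23b-3p, the b form of miR-23, had scaled log2 levels of 1.87, 1.37, 2.02 and 2.19 on normal arrays 1 to 4, and of 1.77, 2.23, 2.09 and 1.99 on NcstnΔKC arrays 1 to 4. Normal 2 was the lowest array, and the groups overlapped. The log2 difference was 0.15 ± 0.20 (limma adjusted p = 0.545; 95% interval -0.31 to 0.62), and its sign turned in 2 of 8 other scalings and sources.

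miR-27b-3p, the b form of miR-27, had scaled log2 levels of 0.51, 0.27, 0.57 and 0.78 on normal arrays 1 to 4, and of 0.62, 1.18, 1.04 and 0.95 on NcstnΔKC arrays 1 to 4. All 4 NcstnΔKC arrays exceeded the normal mean, and NcstnΔKC 2, 3 and 4 exceeded every normal array, whereas NcstnΔKC 1 lay below normal 4. The means were 0.53 ± 0.21 and 0.95 ± 0.24 (SD, n = 4 each), a log2 difference of 0.42 ± 0.17 (unadjusted p = 0.0407, limma adjusted p = 0.0806; 95% interval 0.02 to 0.81). The difference stayed positive in all 8 other scalings and sources, from 0.11 to 1.29, and passed as higher with array weights (limma adjusted p = 0.0179) and without NcstnΔKC 1 (0.53, 0.0333).

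**Figure D1:**
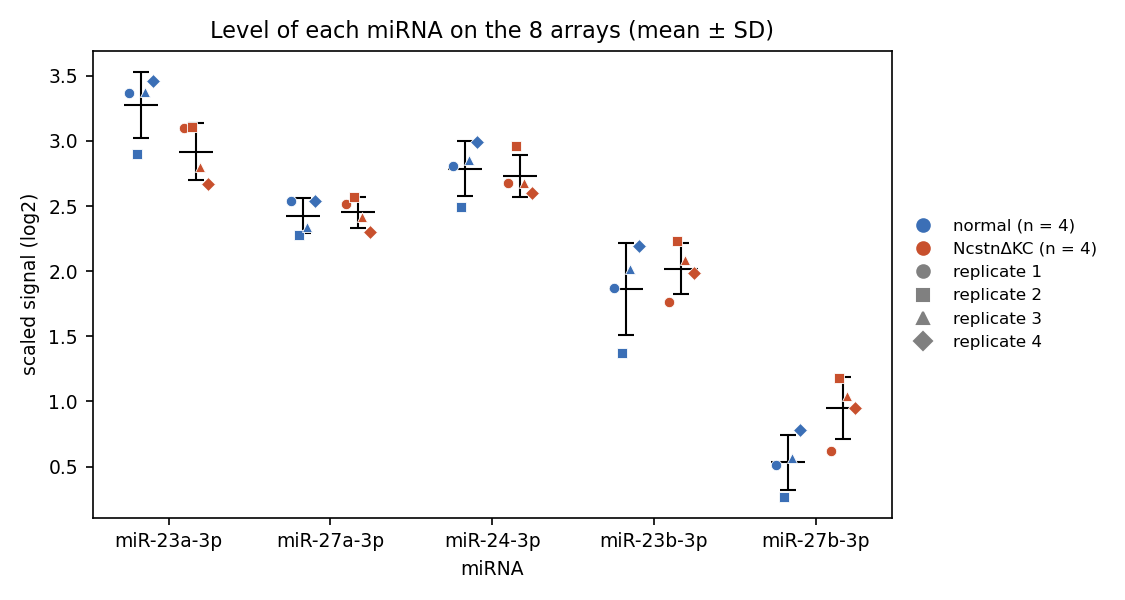
Scaled log2 signal (y axis) of the 5 miRNAs (x axis) on each array, with normal skin in blue and NcstnΔKC skin in orange; marker shapes give the replicate number and black bars the mean ± SD (n = 4 each). The groups overlap for every miRNA, with normal 2 lowest of the normal arrays and NcstnΔKC 2 highest of the NcstnΔKC arrays in all 5.

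**Figure D2:**
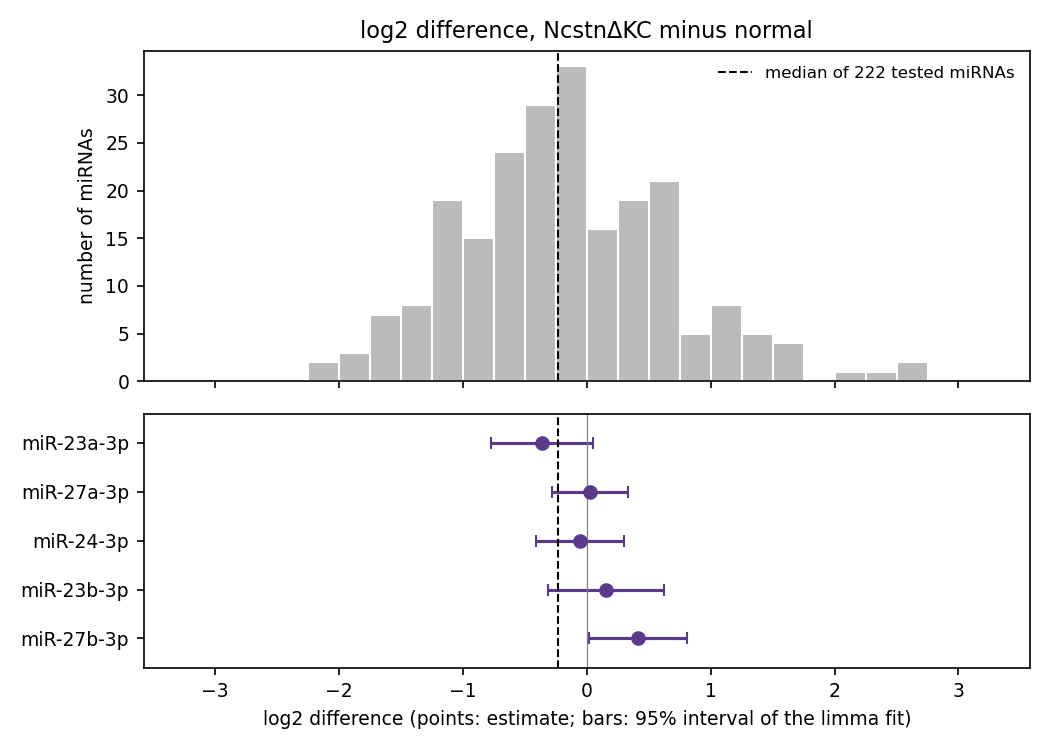
Top, number of miRNAs (y axis) by log2 difference between NcstnΔKC and normal skin (x axis) for the 222 tested miRNAs; bottom, the 5 members on the same axis, with points for the estimate and bars for the 95% interval of the limma fit. The dashed line marks the median of all tested miRNAs, -0.23, and the members lie between -0.36 and 0.42.

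The probes of each member moved together. Per probe the log2 difference was -0.36 for both probes of miR-23a-3p, 0.06 and 0.01 for those of miR-27a-3p, -0.06 and -0.05 for those of miR-24-3p, 0.15 and 0.16 for those of miR-23b-3p, and 0.45 and 0.41 for those of miR-27b-3p. Each probe of an a form thus had a lower log2 difference between groups than each probe of its b form.

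The a and b forms were next compared within each array, since a log2 difference between a pair of miRNAs on the same array is free of any factor that scales the whole array. Only the change of this difference between groups is read, not its size, which also holds the unequal brightness of the probes. For 7 such contrasts, group means were compared by an exact two-sided permutation test over the 70 labelings (smallest possible p = 0.0286), with Benjamini-Hochberg adjustment over the 7. In all the contrasts of a with b the a form was lower relative to the b form in NcstnΔKC skin, but 0 of the 7 contrasts passed after adjustment, and 2 had an unadjusted exact p under 0.05. A contrast could not pass on its own here. Even the smallest possible p stays above 0.05 after adjustment unless most of the 7 contrasts reach it together. A failure to pass thus says little about a single contrast.

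The difference of miR-23a-3p minus miR-23b-3p was 1.50, 1.53, 1.36 and 1.27 on normal arrays 1 to 4, and 1.33, 0.87, 0.71 and 0.68 on NcstnΔKC arrays 1 to 4. NcstnΔKC 2, 3 and 4 were below every normal array, whereas NcstnΔKC 1 fell within the normal range. The mean went from 1.41 ± 0.12 to 0.90 ± 0.30 (SD, n = 4 each), a difference of -0.51 that leaves the a to b ratio at 70.1% of its value in normal skin (exact permutation p = 0.0571, adjusted p = 0.100). Inverting the permutation test gave a 97.1% interval of -0.85 to 0.07.

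The difference of miR-27a-3p minus miR-27b-3p was 2.03, 2.01, 1.77 and 1.76 on normal arrays 1 to 4, and 1.90, 1.40, 1.37 and 1.35 on NcstnΔKC arrays 1 to 4. The same 3 NcstnΔKC arrays were below every normal array, and NcstnΔKC 1 was again inside the normal range. The mean went from 1.89 ± 0.15 to 1.50 ± 0.26 (SD, n = 4 each), a difference of -0.39, or 76.3% of the ratio in normal skin (exact permutation p = 0.0857, adjusted p = 0.100; interval -0.68 to 0.13). For the mean of both a forms minus the mean of both b forms it was -0.45 (exact permutation p = 0.0857, adjusted p = 0.100; interval -0.76 to 0.10).

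NcstnΔKC 1 decided whether these contrasts passed. Without it they were -0.66 for miR-23, -0.52 for miR-27 and -0.59 for the means. Each then had an exact permutation p of 0.0286 over 35 labelings, the smallest these 7 arrays can give, and an adjusted p of 0.0400. NcstnΔKC 1 was the only array of its group inside the normal range, so leaving it out by itself fixed this p. The contrast of the means is also built from the miR-23 and miR-27 values. These calls are thus no separate support. Leaving out any of the other 7 arrays instead gave no call among the 7 contrasts.

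miR-24-3p, made by both, was then set against each cluster's own products. Relative to the mean of miR-23a-3p and miR-27a-3p it differed by 0.11 between groups (exact permutation p = 0.143, adjusted p = 0.143; interval -0.13 to 0.27). Without NcstnΔKC 1 this difference was 0.17 and passed (exact permutation, adjusted p = 0.0400). Relative to the mean of miR-23b-3p and miR-27b-3p it was 1.62, 1.67, 1.56 and 1.50 on normal arrays 1 to 4, and 1.49, 1.26, 1.11 and 1.13 on NcstnΔKC arrays 1 to 4. The groups did not overlap, and the difference was -0.34 (exact permutation p = 0.0286, adjusted p = 0.100; interval -0.56 to -0.02). Without NcstnΔKC 1 it was -0.42 and passed (exact permutation, adjusted p = 0.0400). Its unadjusted p was already the smallest possible with all arrays in. The call thus came from other contrasts reaching that p too, which lowered the adjusted p. The miR-24-3p contrasts reuse the values of the a and b forms, so their calls without NcstnΔKC 1 are no separate support either.

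Members of the same cluster were compared in the same way. The difference of miR-23a-3p minus miR-27a-3p was 0.83, 0.62, 1.04 and 0.92 on normal arrays 1 to 4, and 0.58, 0.54, 0.38 and 0.36 on NcstnΔKC arrays 1 to 4. These groups did not overlap, with a difference of -0.39 (exact permutation p = 0.0286, adjusted p = 0.100; interval -0.67 to -0.04). In the b cluster, miR-23b-3p minus miR-27b-3p differed by -0.26 (exact permutation p = 0.0571, adjusted p = 0.100; interval -0.42 to 0.04), with NcstnΔKC values between 1.04 and 1.14 and only normal array 2 among them. In both clusters the value of miR-23 relative to miR-27 was lower in NcstnΔKC skin, and neither difference passed after adjustment. Groups did not overlap in 2 of the 7 contrasts, beside 34.9% of all 24531 pairs of tested miRNAs. The median absolute group difference over those pairs was 0.80, larger than any of the 7.

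**Figure D3:**
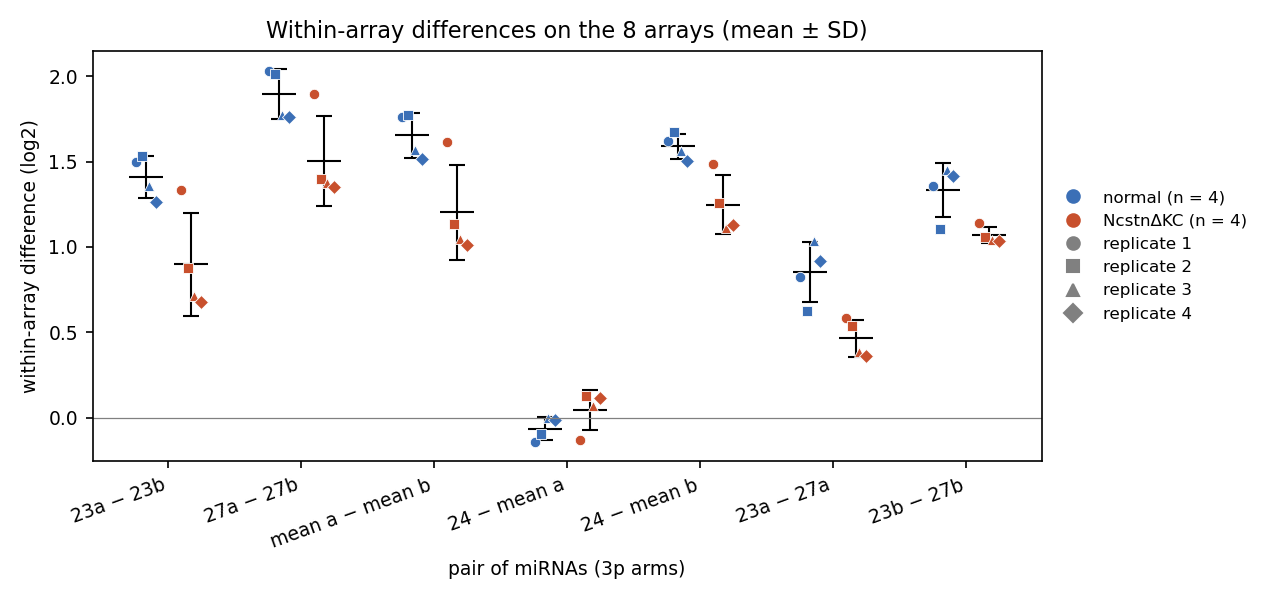
Within-array log2 differences (y axis) for the 7 pairs or means of 3p miRNAs (x axis) on each array, normal in blue and NcstnΔKC in orange; marker shapes give the replicate number and black bars the mean ± SD (n = 4 each). In the 3 contrasts of a with b, NcstnΔKC replicate 1 (orange circle) lies in the range of the normal arrays and the other 3 NcstnΔKC arrays lie below it.

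A factor on a whole array cancels in the a minus b differences by construction, so the percentile over all probes, no scaling, spike-in scaling and the scanner software's totals left them at -0.51 for miR-23 and -0.39 for miR-27. Settings that act on single values could change them. Over the 8 other scalings and sources of values, miR-23a-3p minus miR-23b-3p ranged from -0.58 to -0.50, miR-27a-3p minus miR-27b-3p from -0.48 to -0.29 and the mean of the a forms minus that of the b forms from -0.53 to -0.42. With only the probes of equal length for both paralogues the miR-23 contrast was -0.52 and the miR-27 contrast -0.39. The adjusted p of these 3 contrasts missed 0.05 in each of those settings.

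**Figure D4:**
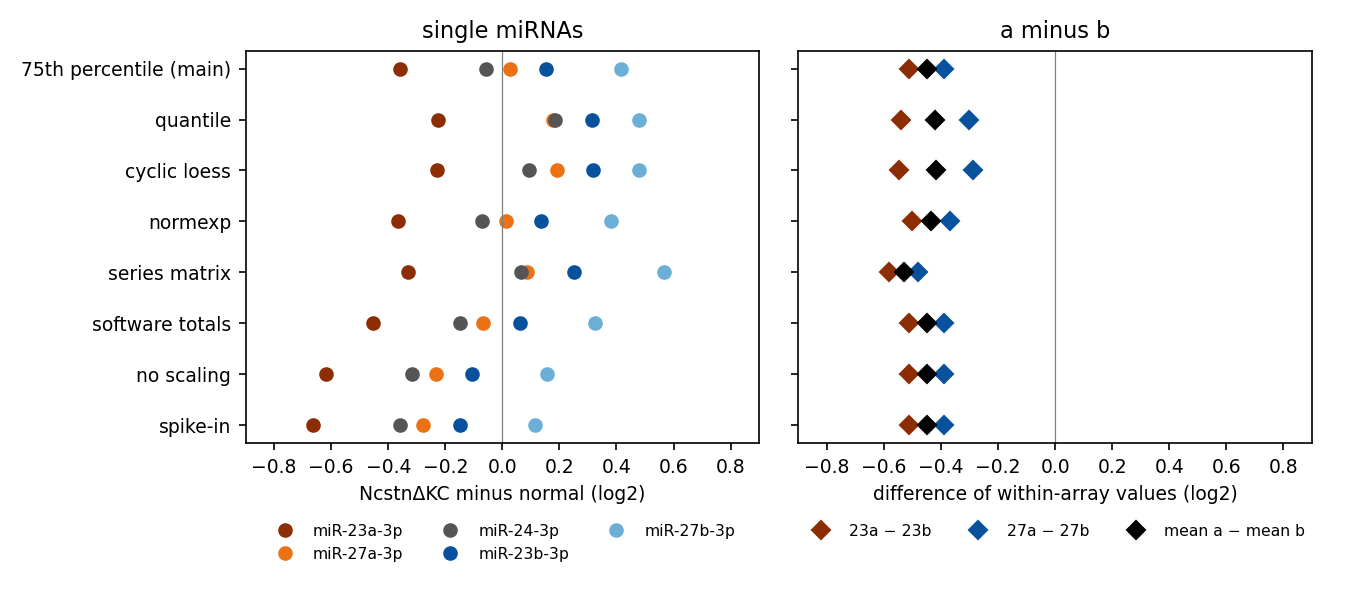
Left, log2 difference between NcstnΔKC and normal skin (x axis) of each miRNA under the scalings and sources of values named on the y axis; right, the group difference of the within-array a minus b values under the same settings. The percentile over all probes, where single miRNAs run from 0.51 to 1.29, is not drawn; single miRNAs shift together along the axis between settings. The a minus b values, in which factors on a whole array cancel, lie between -0.58 and -0.29.

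The partner arms from the other side of the 6 hairpins would tell the clusters of miR-24 apart, but 0 of the 6 were detected on any array, so none was tested. miR-23a-5p, miR-27a-5p, miR-23b-5p and miR-27b-5p had summed intensities below 0 after background subtraction on all 8 arrays. miR-24-2-5p, from the a cluster, gave 46.5 to 60.8 on normal and 40.4 to 63.5 on NcstnΔKC arrays, and miR-24-1-5p, from the b cluster, gave 4.49 to 17.5 and 11.4 to 28.9. None of these was well above background, so they give no order between groups. In RefSeq, the seed of miR-24-3p is shared by 4 other mouse miRNAs, miR-5124b, miR-6369, miR-6410 and miR-6413, all undetected on every array. No miRNA outside the members has the seed of miR-23a-3p or that of miR-27a-3p in that table.

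Within groups the members shared part of their variation. In scaled levels normal 2 was the lowest normal array and NcstnΔKC 2 the highest NcstnΔKC array for all 5. Before scaling normal 2 was still the lowest normal array for all 5, but NcstnΔKC 2 was the highest of its group for none. The scaling percentile of NcstnΔKC 2 was the lowest of all arrays (922). After each group's mean was subtracted, the Pearson r over the 8 arrays was 0.924 between miR-23b-3p and miR-27b-3p of the b cluster and 0.848 between miR-23a-3p and miR-27a-3p of the a cluster. It was 0.626 between the miR-23 paralogues and 0.369 between the miR-27 paralogues. With the group means kept in, it was 0.255 and 0.340 for these pairs and -0.294 between miR-23a-3p and miR-27b-3p. After group means were subtracted, miR-24-3p had an r of 0.863 with miR-23a-3p and of 0.890 with miR-23b-3p (0.754 and 0.786 with the means kept in). These values are descriptions, since all miRNAs of an array share its RNA and its scaling factor.

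Among the other tested miRNAs, the patterns most like that of miR-27b-3p over the 8 arrays were those of miR-205-5p, a basal keratinocyte miRNA (Pearson r = 0.978), miR-146b-5p, which dampens Toll-like receptor signalling (0.942), and miR-182-5p (0.909). After group means were subtracted miR-205-5p and miR-146b-5p still led, at 0.955 and 0.952. miR-205-5p had a log2 difference of 0.47 (limma adjusted p = 0.0518) and miR-146b-5p of 1.64 (0.00402). On the list of 8 keratinocyte miRNAs that holds miR-205-5p, 5 were called lower, beside 27.9% of all tested miRNAs. For miR-23a-3p the closest were miR-26a-5p (0.947), miR-96-5p (0.935) and miR-183-5p (0.935), of which miR-183-5p was called lower (-0.58, limma adjusted p = 0.0267). miR-23b-3p was closest to miR-200c-3p (0.898), let-7i-5p (0.891) and let-7f-5p (0.823), and miR-24-3p to miR-26b-5p (0.887), let-7f-5p (0.863) and miR-96-5p (0.853). miR-27a-3p had no close match, the highest being miR-29a-3p (0.723), miR-96-5p (0.640) and miR-10b-5p (0.533). The closest match after group means were subtracted was miR-183-5p for miR-23a-3p (0.934), miR-107-3p for miR-23b-3p (0.958), miR-193b-3p for miR-24-3p (0.966) and miR-96-5p for miR-27a-3p (0.866).

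Of 17 other miRNAs known in blood vessels, all on the array, 8 were tested and 1 was called lower, beside 27.9% of all tested miRNAs called lower, with a median log2 difference of -0.16 beside -0.23 for all tested miRNAs. The call was miR-130a-3p, which promotes vessel growth (-0.36 ± 0.12, limma adjusted p = 0.0411). miR-126a-3p, the defining endothelial miRNA, differed by 0.15 ± 0.14 (limma adjusted p = 0.392), and the summed level of miR-126a-3p and miR-126a-5p ran from 2.38 to 3.08 on normal and from 2.75 to 3.35 on NcstnΔKC arrays. The 7 that did not pass lay between -0.33 (miR-322-5p) and 0.15 (miR-126a-3p).

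Of the keratinocyte list all 8 miRNAs were tested, with 5 lower and summed scaled levels of 22.8 to 27.7 on normal and 22.9 to 30.5 on NcstnΔKC arrays. The 3 on this list that were not called went the other way, with log2 differences from 0.12 to 0.47, the largest in miR-205-5p. For this and the other cell type lists, calls are to be read beside the 14.9% of all tested miRNAs called higher and the 27.9% called lower. The summed level of 6 white blood cell miRNAs ran from 1.91 to 2.67 on normal and from 2.88 to 8.68 on NcstnΔKC arrays, with 2 of 5 tested higher. That of 6 fibroblast and smooth muscle miRNAs ran from 7.17 to 9.75 and from 10.4 to 16.2, with 3 of 6 tested higher and 1 lower. Single miRNAs of this list went both ways, with log2 differences from -1.14 to 1.21, so its sum does not stand for each of them. The summed level of 4 adipose miRNAs ran from 2.14 to 3.60 on normal and from 1.45 to 1.98 on NcstnΔKC arrays, with 3 of 4 lower. Of 5 striated muscle miRNAs 1 was called lower, but all 5 had a lower mean in NcstnΔKC skin. Their median log2 difference was -1.73, and their summed levels ran from 17.6 to 84.6 on normal and from 6.44 to 38.6 on NcstnΔKC arrays. Both neural miRNAs were undetected. NcstnΔKC 1, whose a to b differences lay among the normal arrays, had the lowest white blood cell level of its group (2.88, against 3.16 to 8.68). NcstnΔKC 2, whose a to b differences lay below the normal arrays, had nearly the same level (3.16). NcstnΔKC 1 had the highest striated muscle level of its group (38.6, against 6.44 to 13.2 in the other 3). Normal 1, whose a to b differences were among the highest, had a lower striated muscle level than that (17.6). NcstnΔKC 1 had the lowest keratinocyte level of its group (22.9, against 23.4 to 30.5). NcstnΔKC 4, whose a to b differences lay below the normal arrays, had nearly the same level (23.4). NcstnΔKC 1 also had the highest summed level of the 3 red blood cell miRNAs (2.83, against 1.07 to 1.47) and of the endothelial pair (3.35). Of these red blood cell miRNAs 2 were tested, with 0 called higher and 1 lower. They went opposite ways, with log2 differences of 0.53 (limma adjusted p = 0.392) and -1.91 (0.0229). Of 2 pigment cell miRNAs 1 was tested and called lower (-1.69, limma adjusted p = 0.00182). The part of these cell types in the members' values was not tested.

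Each array detected between 198 and 273 miRNAs. The scaling percentile averaged 1259 ± 44.6 intensity units over the normal arrays, higher than the 1053 ± 98.3 over the NcstnΔKC arrays (SD, n = 4 each; exact permutation p = 0.0286). All normal arrays sat in row 2 of the slide and all NcstnΔKC arrays in row 1, and the effect of slide position cannot be told apart from that of the group.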

How the data were processed

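The deposited scanner files hold, per the file headers, spot intensity values read with Agilent Feature Extraction 10.7.1.1 from 1-colour (Cy3) arrays, after subtraction of a fitted background surface and with no normalization between arrays. They also carry flags per spot. The series matrix deposited by the authors holds log2 values whose normalization, centring and scale are not given in the sources used here; its column medians ran from 3.24 to 3.25 and it served as an alternative. RNA extraction with a mirVana kit is per the labels' protocols.

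Control spots and outlier spots (2223 to 2940 per array) were left out, and 0 spots were saturated. Detection of a probe required the well-above-background flag on 50% or more of its copies. Probe means were scaled to the 75th percentile of 301 probes, summed per miRNA, floored at 0.0318 (log2 -4.97) and put on a log2 scale. The 222 miRNAs detected on all 4 arrays of a group were fitted with limma 3.58.1 in R 4.3.3, on group alone, with Benjamini-Hochberg adjustment; scripts were tested on simulated data. Contrasts within arrays used exact permutation. The named miRNAs are the members, their partner arms, same-seed miRNAs, called vascular miRNAs and, for each member, the 3 miRNAs of highest Pearson r over the arrays and the leading ones after group means were subtracted. Outside that rule, miR-126a and miR-322-5p were named after their values were seen. The members, lists and tests were chosen with earlier results of these data known. Alternatives covered scaling, background, probe summary, floor, filters, weights, the replicate block and leaving out each array; spots came from 1 slide, so slide could not be a block.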

Additional observations from a re-analysis of the deposited data

Results flagged for a closer look

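Of 24 groups of 4 values checked (the 5 members and the 7 contrasts in each group of arrays), 2 held an array far from the others, where chance alone gives about 1 in 20. The scaled log2 level of miR-23a-3p in normal 2 was 2.90, against 3.37 to 3.46 on the other normal arrays, and without that array miR-23a-3p passed as lower in NcstnΔKC skin (-0.48, limma adjusted p = 0.0497). The within-array difference of miR-27a-3p minus miR-27b-3p in NcstnΔKC 1 was 1.90, against 1.35 to 1.40 on the other NcstnΔKC arrays, and without that array the contrast passed (-0.52, exact permutation, adjusted p = 0.0400). Both arrays were picked for lying apart from their group, so the calls gained without them are no separate support.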

How the results depend on the processing

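Of the 222 tested miRNAs 95 were called, 33 higher and 62 lower. With the percentile over all probes, a percentile that lies between 0.826 and 6.54 intensity units and thus at background, 12 were called (12 higher, 0 lower), and the differences of miR-23a-3p and miR-24-3p turned to 0.51 and 0.81. miR-24-3p also turned with cyclic loess (0.093; 41 higher, 30 lower), quantile normalization (0.18; 37 higher, 31 lower) and the series matrix (0.064; 36 higher, 36 lower). With normexp 36 were higher and 28 lower. Without scaling (24 higher, 101 lower) and when scaled to spike-ins (18 higher, 91 lower), 1 member was called lower in each, miR-23a-3p (-0.62 and -0.66), while miR-23b-3p turned to -0.11 and -0.15 and miR-27a-3p to -0.23 and -0.28. These shifts accompany the median of all tested miRNAs, which was 0.64 with the percentile over all probes, -0.49 unscaled and -0.54 scaled to spike-ins, against -0.23. With the scanner software's totals 52 were called (19 higher, 33 lower) and miR-27a-3p turned to -0.066. With no filter 19 of 1881 were called (8 higher, 11 lower), and with miRNAs detected on all 8 arrays 61, 34 of them lower. Array weights called 1 member higher (miR-27b-3p, 0.44) and 1 lower (miR-23a-3p, -0.51) and turned miR-27a-3p to -0.014. For all these counts and turns the cause was not tested.

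Leaving out each array in turn gave 59 (without NcstnΔKC 3) to 94 calls, 24 to 33 higher and 35 to 62 lower, with 0 to 1 members higher and 0 to 1 lower. The log2 differences ranged from -0.48 to -0.27 for miR-23a-3p, -0.0098 to 0.26 for miR-23b-3p, -0.15 to 0.011 for miR-24-3p, -0.021 to 0.077 for miR-27a-3p and 0.33 to 0.53 for miR-27b-3p. The contrasts ranged from -0.66 to -0.44 (23a minus 23b), -0.52 to -0.34 (27a minus 27b), -0.59 to -0.39 (a minus b means), -0.46 to -0.32 (23a minus 27a), -0.34 to -0.22 (23b minus 27b), 0.082 to 0.17 (24 minus a) and -0.42 to -0.30 (24 minus b). The replicate numbers are shared between groups, but same-numbered arrays did not deviate together (r of -0.44, 0.20, -0.26 and -0.23). The fit with the replicate block called 71 miRNAs and 0 members, with miR-27b-3p at an adjusted p of 0.149 by limma.

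The contrasts kept their direction under all 22 alternatives run for each, but the settings that multiply whole arrays and those that move the floor could not change them. The use of only equal-length paralogue probes was chosen after seeing the data. With 4 arrays per group, wide intervals such as -0.31 to 0.62 for miR-23b-3p limit what can be told.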
